A study of Rattus norvegicus with 23 samples.

Results

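Sftpa1, Sftpb, Sftpc, Sftpd and Scgb1a1, genes of the lung epithelium, and Cd3d, Cd3e, Cd8a, Lck and Rag1, genes of the thymus and T cells, were followed in RNA of 23 newborn rat hearts. They were taken as the probe sets whose only gene symbol is one of these 10, which gave 1 probe set per gene out of 15310 probe sets with 1 symbol (14506 genes) and 29170 in all. The question was whether RNA of lung or thymus was present in some of the samples, and which differences between groups it could shift. The genes were chosen by their values in single hearts, which were already known, so the heart values below are a description and carry no test.

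The hearts came from Sprague Dawley pups on postnatal day 1, with males and females together in each group. The dams of the 7 control hearts ate control diet and received citrate buffer on gestational day 14. The dams of the 6 diabetes hearts ate control diet and were given 65 mg/kg streptozotocin, which destroys insulin-producing cells, on that day. The dams of the 5 HF diet hearts ate a high fat diet from 28 days or more ahead of mating until delivery and received the buffer, and those of the 5 combination hearts ate that diet and received streptozotocin. Diabetic dams were given insulin. Each whole heart was hybridized to 1 Affymetrix Rat Gene 1.0 ST array. The description codes of the 23 hearts begin with 19 stems, 3 of which recur in several hearts, so some hearts may be littermates, and a p-value here measures no more than the spread between the hearts at hand.

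In the newborn chest the thymus lies on the base of the heart and the lungs lie on both sides of it. Alveolar type II cells of the lung make surfactant, a film of lipid and protein that keeps the air spaces open. Its proteins SP-A (Sftpa1) and SP-D (Sftpd) are collectins that bind microbes, and SP-B (Sftpb) and SP-C (Sftpc) are small hydrophobic proteins that spread the film. Scgb1a1 encodes the main secreted protein of the club cells of the airways. Cd3d and Cd3e encode chains of the T cell receptor complex, Cd8a a chain of the CD8 co-receptor, Lck the kinase that starts signalling from that receptor, and Rag1 the enzyme that cuts antigen receptor genes during recombination in developing lymphocytes.

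To show the regulatory sequence of an alveolar gene, an airway gene and both kinds of thymus gene (receptor and recombination), the 250 bases before the start of Sftpb, Scgb1a1, Cd3e and Rag1 are given 5′ to 3′ from RefSeq (build GRCr8), at chr4:105917338-105917587 on the plus strand, chr1:215409687-215409936 on the minus strand, chr8:54211771-54212020 on the minus strand and chr3:108383185-108383434 on the minus strand. Capitals mark exact matches on either strand of CTCAAG (the core bound by the lung factor NKX2-1), TGTTTAC (forkhead), CAGCTG (E-box), GGAAGT (ETS core) and TATAAA (the core promoter box), which do not overlap one another here.
Sftpb: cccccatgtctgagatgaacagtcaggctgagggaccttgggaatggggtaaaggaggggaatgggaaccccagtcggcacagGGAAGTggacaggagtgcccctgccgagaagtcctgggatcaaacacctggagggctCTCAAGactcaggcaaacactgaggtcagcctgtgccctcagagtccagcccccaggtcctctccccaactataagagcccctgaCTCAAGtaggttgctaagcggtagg
Scgb1a1: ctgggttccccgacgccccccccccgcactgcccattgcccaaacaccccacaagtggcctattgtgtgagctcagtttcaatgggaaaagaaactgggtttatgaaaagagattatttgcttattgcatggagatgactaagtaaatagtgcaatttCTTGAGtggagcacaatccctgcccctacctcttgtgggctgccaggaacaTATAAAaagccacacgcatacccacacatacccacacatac
Cd3e: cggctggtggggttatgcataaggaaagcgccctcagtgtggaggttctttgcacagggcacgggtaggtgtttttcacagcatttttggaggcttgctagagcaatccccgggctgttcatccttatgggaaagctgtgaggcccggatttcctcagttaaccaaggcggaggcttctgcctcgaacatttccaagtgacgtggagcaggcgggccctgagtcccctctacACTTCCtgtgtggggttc
Rag1: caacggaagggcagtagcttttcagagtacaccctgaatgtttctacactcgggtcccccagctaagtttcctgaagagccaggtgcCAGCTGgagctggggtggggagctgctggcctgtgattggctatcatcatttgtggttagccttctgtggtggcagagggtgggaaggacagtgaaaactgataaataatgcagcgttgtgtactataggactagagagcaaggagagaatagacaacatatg
The Sftpb window held 2 matches of CTCAAG, at 110 and 25 bases before the start, and the Scgb1a1 window held 1, at 92 bases, besides a TATAAA at 41 bases. Among 33469 rat promoters of the same length, 13.3% held CTCAAG, 12.9% TATAAA, 19.2% GGAAGT, 12% CAGCTG and 3.21% TGTTTAC. A promoter was listed for 8 of the 10 genes. These matches are a description of the letters and say nothing of which factor bound there.

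Every probe set of the deposited table is centred on its own median over the 23 hearts, so a value of 1 is a 2-fold excess over the median heart and the level of a gene in the heart cannot be read. Over the 15310 named probe sets the SD of a probe set over the hearts had a median of 0.17, and a heart had a median of 16 named probe sets above 1. In a whole heart, more cells of a type and more RNA per cell cannot be told apart.

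Control heart 1 was the highest of the 23 hearts for all 10 genes. Among the surfactant genes it read 5.93 for Sftpc (probe set 10785090), 4.54 for Sftpb (10856367), 3.54 for Sftpa1 (10787095) and 1.08 for Sftpd (10940667). Its value for Scgb1a1 (10728574) was 6.26, which is 76.9 times the median heart. The thymus genes followed the same heart, with 4.68 for Cd3e (10916955), 4.67 for Rag1 (10847732), 3.70 for Cd3d (10909583), 3.49 for Cd8a (10856274) and 3.45 for Lck (10880033). The fold excess over the median heart ran from 2.12 for Sftpd to 76.9 for Scgb1a1 in the lung genes and from 10.9 to 25.7 in the thymus genes.

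The other 6 control hearts lay far below it. In hearts 2 to 7, Sftpc read -0.02, -0.15, 0.00, 0.05, 0.07 and -0.35, and Scgb1a1 read -0.06, -0.03, 0.07, -0.54, -0.11 and 0.07. In the same hearts Cd3e read -0.15, -0.24, -0.31, -0.12, -0.20 and 0.00. These values lay between -0.54 and 0.07, with heart 5 the lowest of the 23 hearts for Scgb1a1 and heart 7 the lowest for Sftpc.

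The thymus genes were high in control heart 1 and in no other heart. Over the other 22 hearts, the highest value of Cd3d was 0.42, of Cd3e 0.31, of Cd8a 0.37, of Lck 0.51 and of Rag1 0.40, and the lowest of the 5 genes was -0.52. The gap from control heart 1 down to the next heart ran from 2.94 for Lck to 4.37 for Cd3e. The mean of the 5 thymus genes was 3.998 in control heart 1 and between -0.15 and 0.29 in the others.

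**Figure D1:**
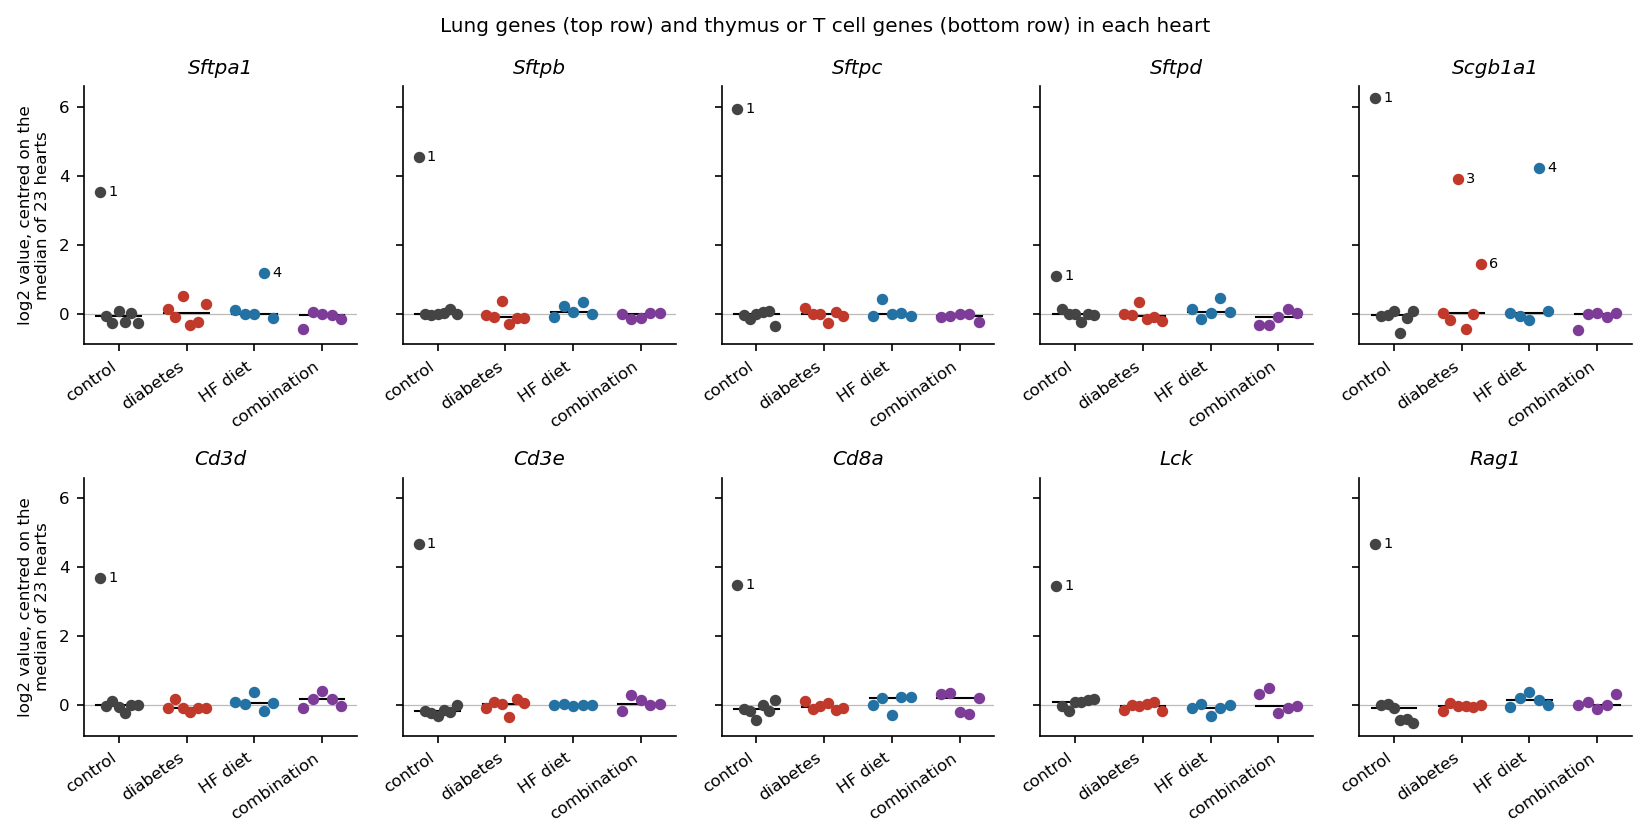
Centred log2 value (y axis) of each of the 10 genes in each heart, by group (x axis). A point is 1 heart, a bar is the median of its group, and the numbers name hearts above 1. Control heart 1 stands above all other hearts in every panel, and diabetes heart 3 and HF diet heart 4 stand out for Scgb1a1 at 3.92 and 4.22.

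The lung genes were not confined to that heart, and the airway gene parted from the surfactant genes. Scgb1a1 read 4.22 in HF diet heart 4, 3.92 in diabetes heart 3 and 1.44 in diabetes heart 6. In the remaining 19 hearts it lay between -0.54 and 0.08. The combination hearts, at -0.47, -0.01, 0.01, -0.09 and 0.02, included no high heart.

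Among the surfactant genes of the 2 highest of those hearts, Sftpa1 in HF diet heart 4 read above 1 and the other values lay between -0.02 and 0.53. HF diet heart 4 read 1.19 for Sftpa1, 0.45 for Sftpd, 0.34 for Sftpb and 0.03 for Sftpc. Diabetes heart 3 read 0.53 for Sftpa1, 0.36 for Sftpb, 0.34 for Sftpd and -0.02 for Sftpc. Both hearts held the highest values after control heart 1 for Sftpa1, Sftpb and Sftpd, while for Sftpc the next highest heart was HF diet heart 2, at 0.44. Sftpc thus lay at the median in both hearts, whereas in control heart 1 its excess was close to that of Scgb1a1.

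The thymus genes of both hearts lay between -0.17 and 0.23. HF diet heart 4 shares its code stem with HF diet hearts 3 and 5, which read -0.18 and 0.08 for Scgb1a1, so the 3 hearts of 1 stem did not share the excess. The mean of the 5 lung genes was 4.27 in control heart 1, 1.245 in HF diet heart 4, 1.02 in diabetes heart 3 and at most 0.27 elsewhere.

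**Figure D2:**
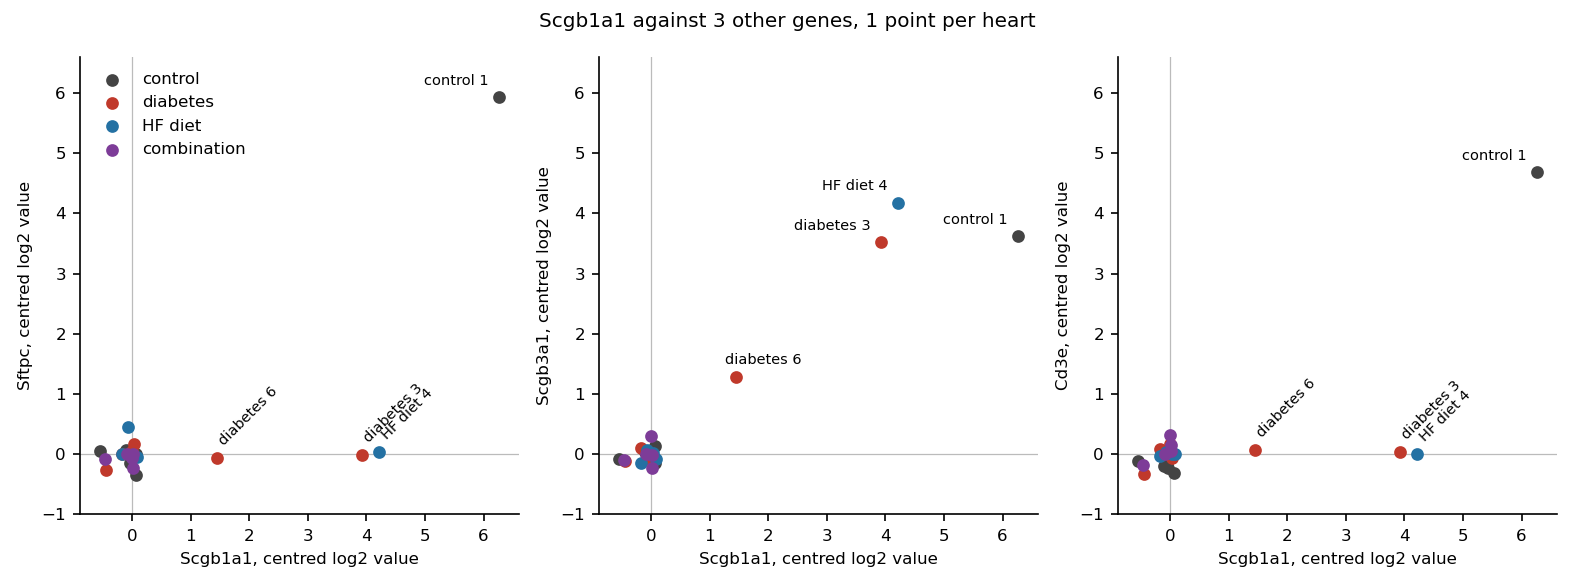
Centred log2 value of Sftpc, Scgb3a1 and Cd3e (y axes) against that of Scgb1a1 (x axis), with 1 point per heart, coloured by group and named where Scgb1a1 exceeds 1. Control heart 1 is high for all 4 genes, while diabetes heart 3 and HF diet heart 4 are high for Scgb1a1 and Scgb3a1 and near 0 for Sftpc and Cd3e.

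Without control heart 1, the probe sets most like Scgb1a1 over 22 hearts were those of genes of other secreted proteins. Pearson's r was 0.99 for Scgb3a1, a secretoglobin of the same family, 0.91 for Chia, an acidic chitinase, and 0.91 for Scgb3a2, another secretoglobin, and 3 of 15300 probe sets (0.0196%) exceeded 0.9. These r rest on the few high hearts and are given as a description. Scgb3a1 read 4.18 in HF diet heart 4, 3.62 in control heart 1, 3.52 in diabetes heart 3 and 1.28 in diabetes heart 6, and at most 0.30 in the other 19. Its order among the hearts differed from that of Scgb1a1, since control heart 1 was first for Scgb1a1 and second for Scgb3a1. Chia read 2.56, 2.46, 1.72 and 1.62 in control heart 1, diabetes heart 3, HF diet heart 4 and diabetes heart 6, and at most 0.27 elsewhere. Scgb3a2 read 1.10, 0.73 and 1.08 in the first 3 of these and 0.00 in diabetes heart 6. The genes r ranked next, Tbc1d2 at 0.81 and Lama1 at 0.78, read at most 0.48 and 0.43.

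Another 5 lists of lung, T cell and thymus genes were read for how far the excess of control heart 1 went beyond the 10 genes. Of their 81 measured genes out of 101 listed, 44 read above 1 in control heart 1 and 54 had their highest value there. Over all 14506 named genes, 1.73% read above 1 in that heart and 8.15% had their highest value there. In HF diet heart 4 and diabetes heart 3, 2 and 1 of the 81 genes read above 1, against 0.172% and 0.0827% of all genes.

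T cell genes made up the most uniform list. All 23 measured other T cell genes had their highest value in control heart 1, and 22 of 23 read above 1, with a list mean of 2.43. Cd3g, the third CD3 chain, read 5.73, Cd8b, the partner of Cd8a, 3.72, Cd5 3.32 and Cd247, the zeta chain of the receptor, 2.99. The exception was Ubash3a, at 0.98. Cd3g lies next to Cd3d on the chromosome and Cd3d next to Cd3e, with no gene between them in RefSeq.

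Genes of the thymic epithelium and of thymocytes were high in the same heart, but only in part. Of 10 thymic epithelial genes, 5 read above 1, led by Prss16, a serine protease of the thymic cortex, at 4.06, Ccl25, the chemokine that draws T cell precursors, at 2.79, and Pax1 at 2.25. Foxn1, the master regulator of that epithelium, read 1.05, and Aire, which drives self-antigens in the medulla, read 0.14. Of 12 genes of thymocyte development, 5 read above 1, with Ikzf1 at 3.18, Arpp21 at 3.16, Ccr9 at 2.46, Ikzf3 at 2.22 and Dntt at 1.30. Notch1 at 0.43, Tox at -0.02 and Hes1 at -0.46 did not.

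The lung lists were split as well. Of 17 other alveolar genes, 6 read above 1 in control heart 1, among them Slc34a2, the phosphate carrier of type II cells, at 3.28, Cldn18 at 2.74, Lamp3 at 2.73 and Ager, a gene of the flat type I cells, at 1.17. Abca3, the lipid carrier of surfactant stores, read 0.40, Nkx2-1 0.07 and Aqp5, also of type I cells, -0.10. Of 19 other airway genes, 6 read above 1, with Scgb3a1 at 3.62, the epithelial genes Epcam at 2.53, Cdh1 at 1.99 and Krt8 at 1.52, Reg3g at 1.28 and Scgb3a2 at 1.10. Foxj1, the regulator of ciliated cells, read 0.00 and Foxa1 -0.28. The same list had a mean of 0.33 in HF diet heart 4 and 0.27 in diabetes heart 3, but Scgb3a1 carried these means, which were 0.117 and 0.0886 over the other 18 genes, below the 0.152 of combination heart 3. The alveolar list had means of 0.05 and -0.07 in the same 2 hearts.

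**Figure D3:**
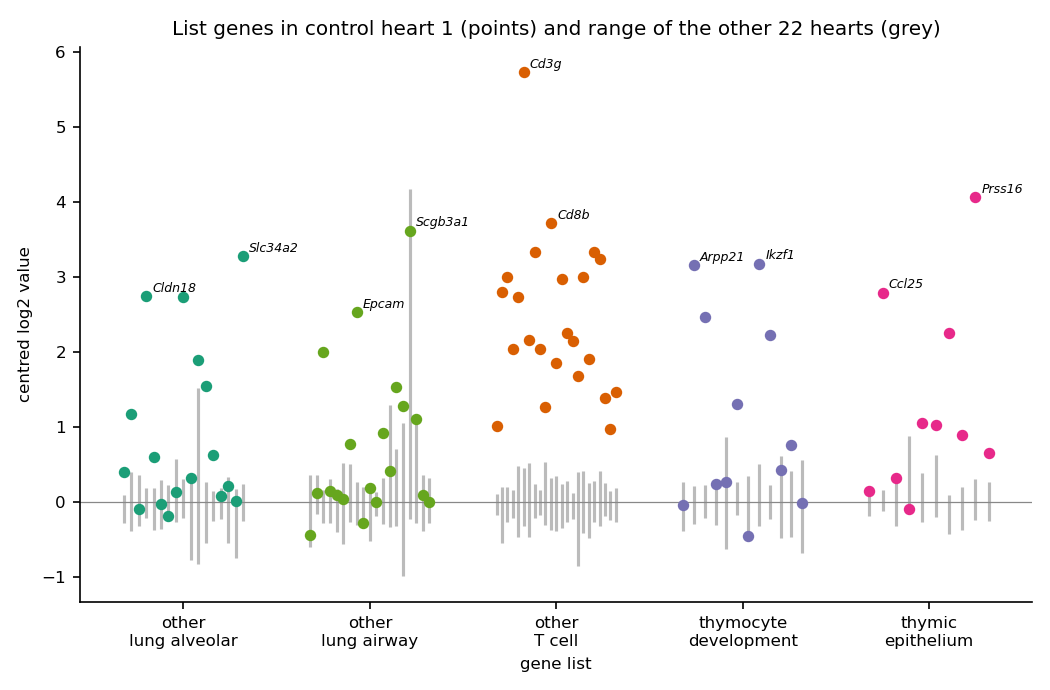
Centred log2 value (y axis) of each measured gene of 5 lists (x axis) in control heart 1 (points), with the range of the other 22 hearts as a grey line and the 2 highest genes of each list named. All T cell genes lie above their grey line, from 0.98 to 5.73, while many lung genes lie within it, and Scgb3a1 reaches 4.18 in another heart.

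Lists of other neighbouring tissues did not stand out by their means in control heart 1. Its mean was 0.10 for B cell genes, 0.04 for thyroid and parathyroid, -0.15 for cartilage and trachea, -0.05 for skeletal muscle and 0.09 for liver. The mean of 15 macrophage genes was 0.49, the highest of the hearts, and combination heart 3 followed at 0.46. The 1 macrophage gene above 1 was Lyz2, at 1.89, which is also on the other alveolar list. Brown fat genes, at 0.34, held rank 6 of 23. Single genes of these lists read above 1, with Ucp1 at 2.49 and Adipoq at 1.16 for brown fat and Fgg at 1.35 for liver. Each of these 3 was higher in another heart. The mean of 17 cardiac muscle genes was -0.09 in control heart 1, the lowest control and rank 21 of 23. It lay within the range of -0.22 to 0.08 of the other hearts, so the heart label was not contradicted. The mean of 9 atrial muscle genes was -0.20 there, also the lowest control, at rank 22 of 23. Centred values cannot show the level of these genes. The part of these cell types in the values of the 10 genes was not tested.

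**Figure D4:**
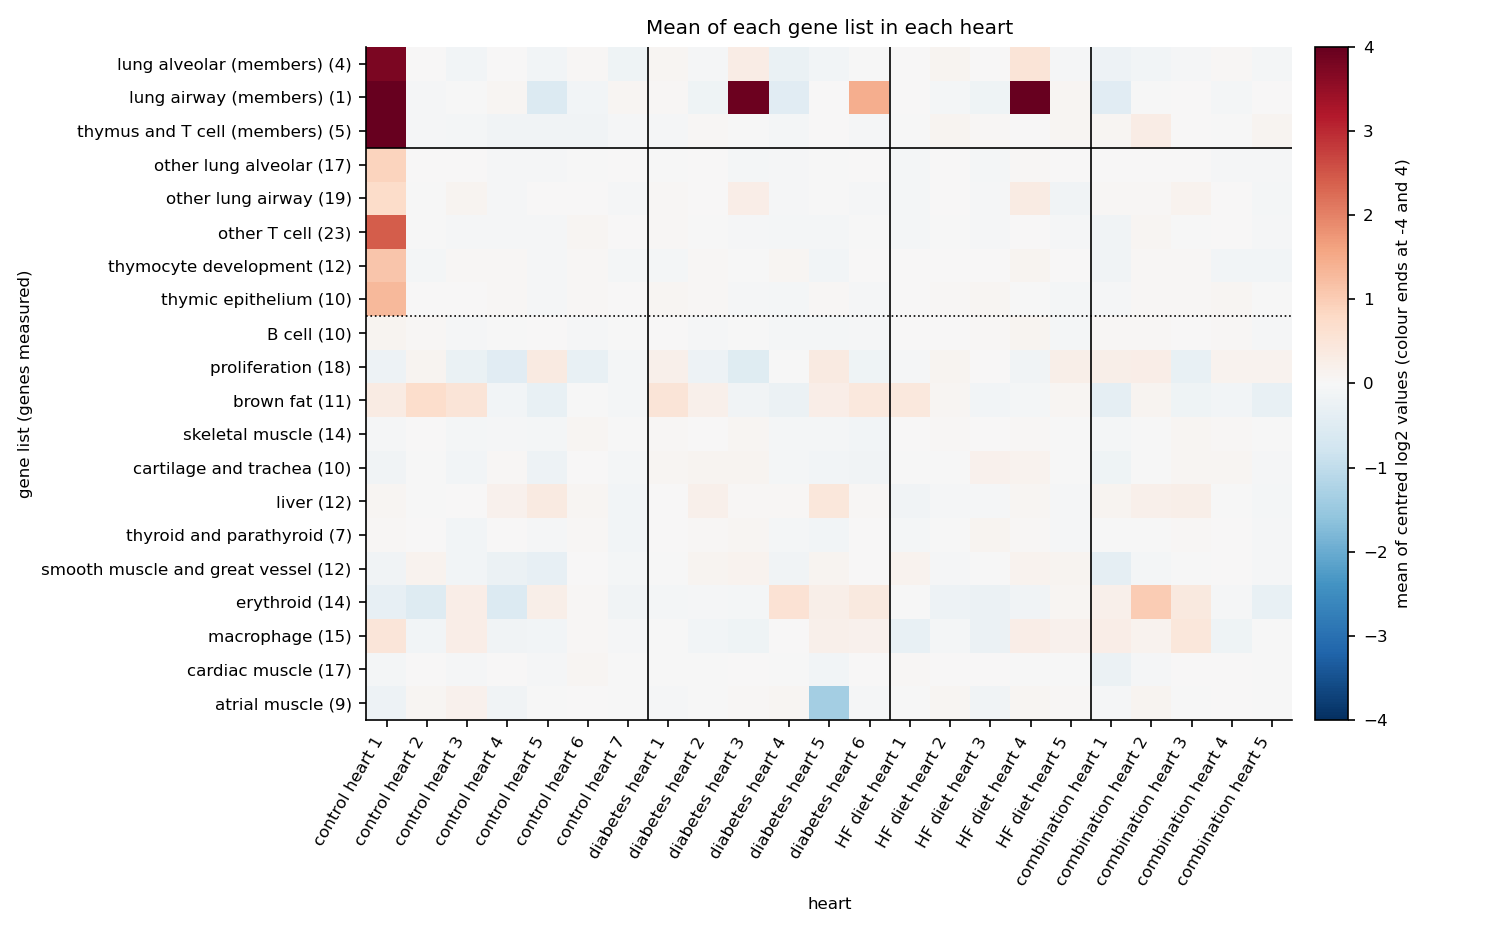
Mean centred log2 value (colour, blue below 0 and red above 0, with the colour ends at -4 and 4) of each gene list (rows, with the genes measured) in each heart (columns, groups parted by lines). The red column of control heart 1 runs over the 8 lung, T cell and thymus lists, and diabetes heart 3 and HF diet heart 4 are deep red for the airway member, Scgb1a1, alone.

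Over all 23 hearts, the probe sets with the highest r to the mean of the lung genes were Epcam (0.95), Cd2 (0.94), Ptprcap, Il21r, Tspan32, Cd247, Rasal3, Dusp2, Irf8 and Cd5 (0.93). Most of these are T cell or leukocyte genes. Those nearest to the thymus mean were Psd4, Cd247, Cd3g and Cd5 (0.99), then Prss16, Icos, Ccl25, Ikzf1, Slc7a11 and Spn (0.98). Of 15300 probe sets, 38 (0.248%) exceeded r = 0.9 with the lung mean and 123 (0.804%) with the thymus mean. Slc7a11, a cystine transporter that belongs to no list, read 5.07 in control heart 1 and at most 0.71 elsewhere.

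The likeness between the 10 genes rested on control heart 1. The median r of the 10 lung pairs was 0.87, of the 10 thymus pairs 0.96 and of the 25 lung with thymus pairs 0.88 over 23 hearts. Without control heart 1 these medians were 0.61, 0.16 and -0.01, and without diabetes heart 3 and HF diet heart 4 as well they were 0.16, 0.17 and 0.02. Spearman's rho, which a single heart moves less, had medians of 0.46, 0.30 and 0.07 over 23 hearts.

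The group means of the 10 genes were compared in limma at the threshold of the methods, a fold beyond 5/4 in either direction (0.32 on the log2 scale) with an unadjusted p under 0.05. In combination minus control, 0 of the 10 genes passed, where 3.31% of all probe sets did. The counts were also 0 in diabetes minus control (0.305% of all probe sets), HF diet minus control (0.943%), combination minus diabetes (3.04%), combination minus HF diet (5.76%) and diabetes minus HF diet (0.439%). No gene had an unadjusted p under 0.05 in limma in any of the 6 comparisons, and 0 passed in the methods' t-test, where the shares of all probe sets were 1.24%, 0.175%, 0.542%, 0.987%, 2.78% and 0.281% in the order just given. The comparisons with control share the 7 control hearts, so each carries the values of control heart 1. The 10 genes were chosen by such values, and an excess in 1 heart widens their SE. The 0 counts in these comparisons are therefore a description and no test.

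The differences from control were nevertheless wide. In combination minus control all 10 genes lay below 0, from -0.92 for Scgb1a1 to -0.25 for Sftpd, with a median of -0.45, and 8 lay beyond that fold. Over all probe sets the median was 0.00 and 5.77% lay beyond that fold. In diabetes minus control 10 lay below 0 with a median of -0.52 and 8 beyond the fold, and in HF diet minus control 9 lay below 0 with a median of -0.38 and 6 beyond it. The SEs ran from 0.16 to 0.98, so no difference was large against the spread between hearts.

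Without control heart 1, the differences lay between -0.13 and 0.37 except for those of Scgb1a1 in diabetes and HF diet hearts. In combination, diabetes and HF diet minus control, 0, 0 and 1 of the 10 genes then passed the threshold, beside 2.03%, 0.37% and 1.02% of all probe sets. The median over the 10 genes was 0.03 in combination minus control, 0.07 in diabetes minus control and 0.15 in HF diet minus control, and 0, 1 and 3 genes lay beyond the fold. Besides Scgb1a1 these were Sftpa1 (0.35) and Rag1 (0.37) in HF diet minus control. Sftpc moved from -0.87 ± 0.69 (SE) to -0.01 ± 0.10 in combination minus control, and Sftpb from -0.71 ± 0.52 to -0.07 ± 0.09. Cd3e moved from -0.46 ± 0.56 to 0.24 ± 0.09 in the same comparison. The SEs of the thymus genes in that comparison shrank from between 0.40 and 0.57 to between 0.09 and 0.12.

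Scgb1a1 hid an opposite case. With all hearts its mean was 0.81 ± 2.41 (SD, n = 7) in control, 0.80 ± 1.66 (n = 6) in diabetes and 0.81 ± 1.91 (n = 5) in HF diet hearts, since each group held 1 heart above 3. The differences from control were -0.01 in diabetes and 0.00 in HF diet hearts. Without control heart 1 they were 0.90 ± 0.67 and 0.91 ± 0.70, and without diabetes heart 3 and HF diet heart 4 as well no lung gene lay beyond the fold. In combination hearts the mean was -0.11 ± 0.20 (SD, n = 5).

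**Figure D5:**
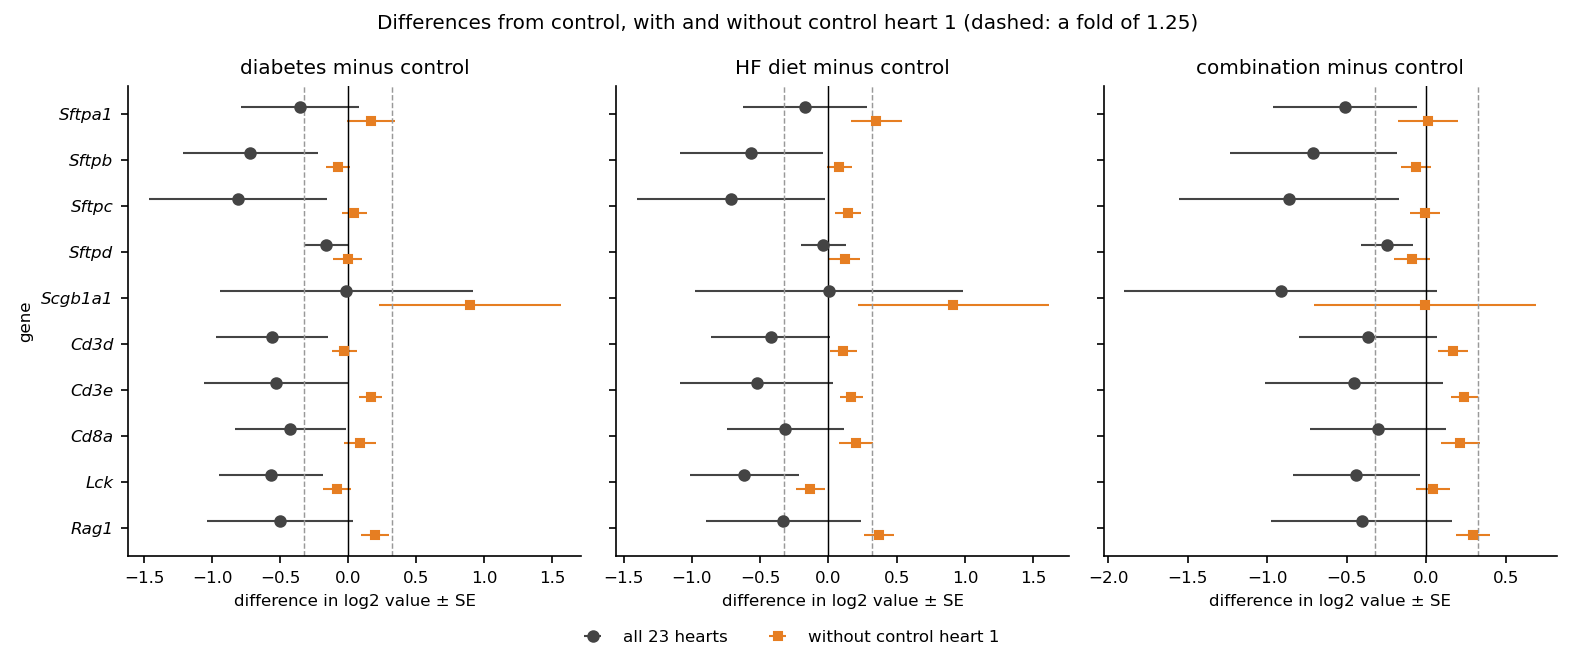
Difference in log2 value from control (x axis) with its SE for each of the 10 genes (y axis) in limma, with all 23 hearts (grey circles) and without control heart 1 (orange squares). The grey points lie at or below 0, down to -0.92, and the orange points lie between -0.13 and 0.37 except Scgb1a1 at 0.90 and 0.91 in diabetes and HF diet hearts.

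Rag1 was the only one of the 10 genes to pass the threshold without control heart 1, in HF diet minus control. In control hearts 2 to 7 it read 0.02, 0.05, -0.07, -0.43, -0.41 and -0.52, and in HF diet hearts 1 to 5 it read -0.04, 0.21, 0.40, 0.15 and 0.00, so the groups overlapped. The difference was -0.33 ± 0.57 with all hearts and 0.37 ± 0.11 without control heart 1, with an unadjusted p of 0.0025 and a Benjamini-Hochberg adjusted p of 1.00 in limma. In combination minus control without that heart, Cd3e and Rag1 had unadjusted p-values of 0.011 and 0.013 in limma at differences of 0.24 and 0.29, under the fold. Control heart 1 was set aside for its values of these same genes, so the p-values without it are a description and no test.

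Control heart 1 could alone move the control mean past the fold for 80 probe sets (0.274%), those in which it exceeded the mean of the other 6 controls by at least 2.25. The same count was 77 for combination heart 2, 54 for HF diet heart 3, 36 for combination heart 1 and at most 23 for each other heart, where a smaller excess is enough in a smaller group. Control heart 1 was the higher side in all 80, and 9 of the 10 genes were among them, Sftpd being the exception. With all hearts, 54, 68 and 59 of the 80 lay beyond the fold in combination, diabetes and HF diet minus control, and without control heart 1 these were 1, 3 and 5. With all hearts, 0 of the 80 passed the threshold in any of the 3. An excess in 1 heart widens the SE along with the difference, so these counts largely follow from how the 80 were picked. The median SE of the 80 in combination minus control was 0.36 with all hearts and 0.10 without that heart.

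Among the genes of the 5 lists, the calls that changed in the comparisons with control were those of Cd4, Ager and Lyz2. Cd4, the co-receptor of helper T cells, read 2.16 in control heart 1, and 0.15, 0.29, -0.05, 0.52, -0.01 and 0.41 in control hearts 2 to 7. The highest value in an exposed heart was 0.33. With all hearts Cd4 passed the threshold as lower in each exposure, by -0.53 ± 0.25 (unadjusted p = 0.045) in combination, -0.53 ± 0.24 (unadjusted p = 0.038) in diabetes and -0.57 ± 0.25 (unadjusted p = 0.032) in HF diet hearts in limma, with adjusted p-values of 0.501, 1 and 1.00. Without control heart 1 the differences were -0.26 ± 0.12, -0.25 ± 0.12 and -0.30 ± 0.12, all under the fold. The unadjusted p-values in limma were then 0.052, 0.048 and 0.026, so the diabetes and HF diet calls were lost by the fold alone. Cd4 was the only gene of the 5 lists lost in all 3 comparisons, and its direction stayed. With all hearts and both member means as covariates it kept its call in combination (-0.35) and HF diet (-0.36) minus control and lost it in diabetes minus control (-0.28).

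Ager was lost likewise in combination minus control, where it moved from -0.36 ± 0.17 to -0.19 ± 0.11. Satb1, a chromatin organizer of thymocytes, kept its call there at -0.60 ± 0.24 and -0.37 ± 0.16, and Tox at -0.35 ± 0.15 and -0.37 ± 0.16. Lyz2, a lysozyme of type II cells and macrophages, was called only without control heart 1, at 0.83 ± 0.31 against 0.56 ± 0.37 with it. Over the 84 probe sets of the 5 lists, 4 were lower and 0 higher in combination minus control with all hearts, and 2 and 1 without control heart 1. Of all named probe sets, 0.999% were lower and 2.48% higher there with all hearts, and 0.627% and 1.45% without that heart. In diabetes minus control the counts were 1 and 0, then 0 and 0, beside 0.0457% and 0.124%, then 0.0523% and 0.137%, of all named probe sets. In HF diet minus control they were 2 and 0, then 1 and 0, beside 0.261% and 0.216%, then 0.255% and 0.189%. With counts this small, nothing particular to the lists is read from them. The median difference of the other T cell list was -0.33, -0.36 and -0.34 in combination, diabetes and HF diet minus control with all hearts and -0.01, -0.01 and 0.00 without control heart 1, where the median of all named probe sets stayed within 0.01 of 0 in both.

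Genes outside the lists were looked at where control heart 1 read above 1. Leaving out the highest control lowers the control mean by arithmetic, so their differences from control had to move upward. Stap1, a signalling adaptor, read 1.45 there and fell under the threshold in diabetes and HF diet minus control, from -0.39 to -0.21 and from -0.48 to -0.30. Pla2g2d, a secreted phospholipase of lymphoid tissue, read 1.97 and moved from -0.53 to -0.26 in HF diet minus control, and Itgal, an integrin of leukocytes, read 1.37 and moved from -0.43 to -0.24. Without control heart 1 the unadjusted p in limma stayed under 0.05 for Pla2g2d (0.0054), Itgal (0.0056) and Stap1 (0.027) in HF diet minus control. These calls were lost by the fold alone. For Stap1 in diabetes minus control the p was 0.096. Such p-values are a description and no test. Reg3b, a secreted lectin, read 2.46 and kept its call in HF diet minus control, at -0.99 and then -0.68. Its relative Reg3g of the airway list did likewise, at -1.07 and then -0.92. In combination minus control Reg3b lost its call, moving from -0.77 to -0.45. Ifi44l (from -0.45 to -0.30), Atp2a3 (-0.44 to -0.21), Acp3 (-0.34 to -0.19) and Tsx (-0.43 to -0.28) lost theirs there too. Atp2a3 and Acp3 were lost by the fold alone, with an unadjusted p in limma of 0.032 and 0.045 without control heart 1. For Reg3b, Ifi44l and Tsx that p was 0.069, 0.092 and 0.063. Other genes above 1 in control heart 1 were called only without it, as higher in exposed hearts. They were Gmfg (from 0.17 to 0.40) and Chi3l1 (0.20 to 0.38) in combination minus control. In diabetes minus control they were Adh1c (0.32 to 0.50) and Slco2a1 (0.22 to 0.48). In diabetes and HF diet minus control, the Benjamini-Hochberg adjusted p in limma was 1.00 for each call with all hearts named here. In combination minus control with all hearts it was 0.496 for Reg3b.

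Most calls that changed when control heart 1 was left out were of genes that were not high in it. Of 965 probe sets past the threshold in combination minus control, 531 remained without that heart, which is 55% of the first and 89.8% of the 591 called without it. Of the 434 lost, 13 (2.995%) read above 1 in control heart 1, and the median value of the 434 there was -0.22. Control heart 1 was the lowest control in 177 of the 434 and the highest in 89. In diabetes minus control 8 of 27 lost (29.6%) and in HF diet minus control 8 of 54 lost (14.8%) read above 1, where 1.30% of all probe sets did. A lost call depends on control heart 1 by definition, so part of the excess over that share is built in. Of the 380 probe sets above 1 in control heart 1, 15 passed the threshold in combination, 8 in diabetes and 11 in HF diet minus control with all hearts, and 5, 6 and 6 without it. These are largely different probe sets. Of the calls with all hearts 13, 8 and 8 were lost, and of those without control heart 1, 3, 6 and 3 were new. The first counts are 3.95%, 2.11% and 2.89% of the 380, beside 3.31%, 0.305% and 0.943% of all probe sets, and the second 1.32%, 1.58% and 1.58%, beside 2.03%, 0.37% and 1.02%. Leaving out other single hearts moved the first count as far, to between 348 and 2103.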

How the data were processed

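RNA of 23 whole hearts (7 control, 6 diabetes, 5 HF diet, 5 combination) was hybridized to 23 arrays. The authors normalized the intensities in GeneSpring GX and deposited log2 values for 29170 probe sets, centred on the median over the arrays. The algorithm and the log base are not stated by the sources used here (base 2 was taken), and the centring removes levels and signal over background, so no filter on dim probe sets was possible. Names came from the annotation of the array: 15310 have 1 symbol, 323 several and 13537 none. The Entrez identifiers of the 10 genes matched RefSeq.

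The deposited values were fitted in R 4.3.3 with limma 3.58.1 (lmFit and eBayes), with 1 mean per group over 23 hearts and 6 pairwise differences, and adjusted by Benjamini-Hochberg over 29170 probe sets. The threshold was that of the methods, whose unequal-variance test, the methods' t-test, was an alternative. Likeness is Pearson's r. Scripts were tested on simulated data. Tables and figures were made in Python 3.11.15.

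The 10 genes and the lists were chosen with earlier results of these data known. Besides the 10 genes, the genes named are those of 5 related lists with high or low likeness and the 10 nearest to each member mean. Of up to 5 per comparison that moved most with both member means as covariates, Cd4, Stap1, Ifi44l, Reg3b, Reg3g, Pla2g2d and Bmp10 are named above or below. The rest are not discussed. Among them Alox15 moved most, from 1.16 to 0.63 in combination minus HF diet. Hpdl and Bcs1l, at -0.96 and -1.11 in control heart 1, moved from 0.58 to 0.37 and from 0.61 to 0.42 in combination minus control. Further genes were chosen after their values were seen (Lyz2, Tox, Itgal, Satb1, Chia, Scgb3a2, Tbc1d2, Lama1, Atp2a3, Acp3, Tsx, Gmfg, Chi3l1, Adh1c, Slco2a1 and other list genes). The alternatives without 3 hearts together and without Scgb3a1 in a list mean were chosen after seeing the data.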

Additional observations from a re-analysis of the deposited data

Results flagged for a closer look

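In each group, the highest or lowest heart was looked at again when its gap to the nearest heart was large against the range of its group, which chance gives in about 1 in 20 groups of values that were not picked. The 10 genes were chosen by their values in single hearts and the lists with these known, so that rate does not apply to them, and what follows is a description and no test. Control heart 1 was set apart as the highest control for Sftpa1 (3.54), Sftpb (4.54), Sftpc (5.93), Sftpd (1.08), Scgb1a1 (6.26), Cd3d (3.70), Cd3e (4.68), Cd8a (3.49), Lck (3.45) and Rag1 (4.67). It was set apart too for the means of the other lung alveolar (0.906), other lung airway (0.74), other T cell (2.43), thymocyte development (1.12) and thymic epithelium (1.31) lists.

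HF diet heart 4 was the highest of its group for Scgb1a1 (4.22), Sftpa1 (1.19) and the thymocyte development mean (0.107), and diabetes heart 3 for the other lung airway mean (0.269, or 0.0886 without Scgb3a1). Smaller gaps set apart HF diet heart 2 for Sftpc (0.444), diabetes heart 2 for Cd3d (0.171) and, as the lowest, combination heart 1 for Scgb1a1 (-0.466). Diabetes heart 3 was not set apart for Scgb1a1, where diabetes heart 6 lay between it and the others.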

How the results depend on the processing

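The 10 single genes kept their side of the threshold in every alternative but for Rag1 in HF diet minus control, which passed without control heart 1 (0.37) and without control heart 1, diabetes heart 3 and HF diet heart 4 together (0.37), so that the count of genes there went from 0 to 1. With 1 heart left out in turn it lay between 0 and 1 there and at 0 in the other 5 comparisons. Precision is limited by how many arrays there are, and values centred per probe set hide whether a gene was above background.

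Leaving out 1 heart moved the median r of lung pairs between 0.61 and 0.90, of thymus pairs between 0.16 and 0.97 and of lung with thymus pairs between -0.00885 and 0.95, each lowest without control heart 1. Without the 2 hearts farthest from the median (control heart 1 and HF diet heart 4) the medians were 0.45, 0.16 and -0.0365, without the 3 high hearts 0.16, 0.17 and 0.0246, as Spearman's rho 0.46, 0.30 and 0.0727, and after quantile normalization 0.74, 0.79 and 0.57.

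Counts of probe sets past the threshold are given in the order combination, diabetes and HF diet minus control, combination minus diabetes, combination minus HF diet, and diabetes minus HF diet. They were 965, 89, 275, 886, 1679 and 128, and 361, 51, 158, 288, 812 and 82 in the methods' t-test. At an adjusted p under 0.05 in limma they were 0 in all 6. Without the 3 high hearts they were 567, 104, 250, 758, 1725 and 279. Array weights gave 380, 114, 241, 511, 627 and 182, quantile normalization 454, 94, 301, 413, 879 and 226, both member means as covariates 756, 92, 230, 636, 923 and 152, and the code stem as a random block 911, 87, 176, 805, 1376 and 100. The combination minus control count was 622 with the lung mean and 551 with the other T cell mean as a covariate. With 1 heart left out the counts lay between 348 and 2103, 68 and 140, 152 and 450, 277 and 2143, 576 and 2995, and 99 and 351. Single hearts that moved a count by over 1.5 times were control hearts 1 (591) and 5 (1676) and combination hearts 1 (348), 4 (2103) and 5 (1572) in combination minus control, control heart 6 (137) and diabetes hearts 4 (136) and 5 (140) in diabetes minus control, and control heart 6 (425) and HF diet hearts 2 (450), 3 (152) and 4 (176) in HF diet minus control. They were diabetes hearts 5 (2143) and 6 (507) and combination hearts 1 (277), 2 (570), 4 (2125) and 5 (1508) in combination minus diabetes, HF diet heart 3 (1112) and combination hearts 1 (576) and 4 (2995) in combination minus HF diet, and diabetes heart 3 (351) and HF diet hearts 1 (205), 2 (221) and 5 (209) in diabetes minus HF diet. The cause of these moves was not tested.

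The replicate numbers did not pair the hearts, since the deviations of 31 same-numbered pairs correlated between -0.42 and 0.56 with a median of -0.08, and 7 exceeded 0.1. With the replicate number as a block the counts were 632, 110, 406, 579, 1658 and 163, and 0 of the 10 genes passed in any comparison.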

Other observations

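In 2 further hearts other genes stood apart. Control heart 5 read 5.47 for Ttr, which encodes the thyroxine carrier transthyretin and is made by liver and choroid plexus, against at most 1.71 in the other 22 hearts. It read 3.38 for the potassium channel gene Kcnj13, 3.20 for the serotonin receptor gene Htr2c, 2.19 for Clic6, 2.07 for Sostdc1, 1.85 for the claudin gene Cldn2, 1.67 for Kl and 1.52 for the folate receptor gene Folr1, each at most 0.36 in the others. The same heart read -0.54 for Scgb1a1, the lowest of the 23, and -0.43 for Rag1.

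Diabetes heart 5 read -3.82 for Sln, which encodes the atrial calcium pump regulator sarcolipin, and -3.67 for Bmp10, a growth factor of the atrium, where the other 22 hearts lay no lower than -0.56 and -1.05. Its mean over 9 atrial genes was -1.36, and among these Stard10 read -1.76, Myl7 -0.40 and Nppa -0.04. The same heart read 2.04 for Alb, where the others reached at most 1.44, and 2.28 for Ucp1, where another reached 3.34. Its values for the 10 lung and thymus genes lay between -0.25 and 0.17.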
